A study of Mus musculus with 16 samples.

Results

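NKG2D is an activating receptor that lets natural killer (NK) cells and some T cells recognise stressed, infected or transformed cells. Mouse genes for the receptor, its signalling partners and its ligands were followed here in bone marrow: the ligand genes H60a, H60b, Raet1a, Raet1d, Raet1e and Ulbp1, the receptor gene Klrk1, and the adaptor genes Hcst and Tyrobp. These 9 genes were chosen by name, with earlier results of the same mice known, out of 34650 gene names on the array. They were read from every probe that carries one of the names, which gave 9 probes for 8 genes; no probe was found under the name Raet1d.

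Bone marrow RNA of 16 mice was hybridised to 1-colour Agilent arrays, 1 array per mouse. The 8 KO chimeras were C57BL/6J mice given 950 rad of irradiation and then a single retro-orbital injection of whole marrow from mice with knockout alleles of a pair of beta adrenergic receptor genes, among them Adrb1 (allele Adrb1tm1Bkk). The labels give the injected ratio as 1:4, knockout to C57BL/6J, without further explanation, and a recovery of 2 to 3 months. The 8 controls carry the label of the same irradiated strain, with the same 950 rad and recovery of 2 to 3 months. No marrow donor is named for them. Receptor loss, the genetic background of the donor strain and grafting itself therefore cannot be told apart in this comparison, and residual host cells were not measured. Age and sex are not given in the labels.

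NKG2D has no signalling motif of its own and sits in the membrane with the adaptor DAP10 (Hcst) or, for a short mouse isoform, DAP12 (Tyrobp), which pass the signal to lipid and tyrosine kinases. Its mouse ligands are distant relatives of MHC class I in 3 families, H60, RAE-1 (the Raet1 genes) and MULT-1 (Ulbp1). Healthy cells carry little of most ligands, and DNA damage, proliferation and infection are known to raise them. The H60 protein was first described through a minor histocompatibility antigen that C57BL/6 mice lack, and among RAE-1 isoforms the products of Raet1d and Raet1e are those described in C57BL/6.

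The probes decide which of these related genes was measured, so those that carry the main results are shown first, 5′ to 3′, as the array files give them. The H60a, Raet1e and Klrk1 probes are given by their first 30 of 60 bases, and the others whole. The H60a and H60b probes shared no run longer than 5 bases. Capitals mark the longest run of the Raet1a probe that also occurs in a probe for Raet1c, 20 bases long. They also mark the 33 bases that the 2 Raet1c probes have in common. A further run of 18 bases of the Raet1a probe, left in lower case, lies within those 33 bases. The Raet1a probe may therefore not separate Raet1a from Raet1c.
H60a probe: cccagcttcaataacttggagacattgatc
H60b probe: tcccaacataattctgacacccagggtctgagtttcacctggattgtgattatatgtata
Raet1e probe: tattaaacccagggcaagtcccacagtaag
Raet1a probe: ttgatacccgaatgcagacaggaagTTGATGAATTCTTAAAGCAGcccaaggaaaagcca
Raet1c probe 1: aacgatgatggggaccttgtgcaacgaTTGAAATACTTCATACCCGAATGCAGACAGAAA
Raet1c probe 2: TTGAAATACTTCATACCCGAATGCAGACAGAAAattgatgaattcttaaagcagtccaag
Klrk1 probe: aagcaaggcactatatttgaaagtatatag
Tyrobp probe: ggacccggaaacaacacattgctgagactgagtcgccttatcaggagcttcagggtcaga
The files place the H60b probe on chromosome 10, 22006931 to 22006990 of mouse build mm9, Raet1a at 22091376 to 22091435 and Raet1e at 21903525 to 21903584, so these RAE-1 and H60 genes lie close together. They give the H60a probe no position. Both Ulbp1 probes were placed on an unordered sequence (chrUn_random, 3071037 to 3071096 and 3074042 to 3074101). Klrk1 was placed on chromosome 6, 129561864 to 129561923. Hcst (31202736 to 31202795) and Tyrobp (31200651 to 31202378) are neighbours on chromosome 7, and the Tyrobp span exceeds the length of its probe. For the Raet1e probe the files list 4 curated transcripts, of Raet1e, Raet1b, Raet1a and Raet1c, so a signal there could come from any of them. No annotation of exons in mm9 was used here.

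Levels below are log2 of a probe's processed signal over the 75th percentile of its array, so 0 is that percentile and each unit is a doubling. Differences are KO chimera minus control with the SE of the limma fit, and levels of different probes are not set against each other. The 75th percentile was 127 to 545 intensity units on KO chimera arrays and 231 to 558 on control arrays; with 1 array per mouse, precision rests on the spread between mice. Probes well above background in 6 or more of 8 mice of a group were kept, which held for 8 member probes of 7 genes and not for Raet1a. H60a was kept only through the KO chimeras, and Klrk1 and Raet1e only through the controls. Of the targeted genes, Adrb1 is read by 2 probes on chromosome 19. On the first (56797242 to 56797301) it ran from -2.99 to -2.19, median -2.41, in KO chimeras, against -2.58 to -2.34, median -2.51, in controls, a difference of -0.00041 ± 0.11 (limma adjusted p = 0.998). On the dimmer one (56799215 to 56799274) it ran from -4.33 to -1.99, median -3.63, in KO chimeras, against -5.13 to -3.62, median -4.40, in controls, a difference of 0.95 ± 0.30. As no source used here says whether either lies inside the deletion, neither probe checks the genotype.

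Both H60 ligand genes were higher in every KO chimera than in every control, the receptor gene Klrk1 was lower on average, and both adaptor genes differed by less than the spread between mice. These differences were in view when the members were chosen, so they are given as a description, without a test. H60a, the ligand for which the H60 family is named, was well above background on all 8 KO chimera arrays and on 0 of 8 control arrays. Its level was 2.23, 2.21, 1.77, 1.84, 1.71, 1.45, 1.22 and 1.38 in KO chimeras 1 to 8. In controls the spots read -7.70 at the lowest, -6.98 at the median and -5.71 at the highest, all at background. Every KO chimera lay above every control, the lowest by at least 5.33 log2 units when controls are set to the lowest signal measurable on their arrays. On that same footing H60a was at least 94.0-fold higher in KO chimeras. This bound holds for the processed signals used here, and another normalization, given below, gave a smaller difference. The measured means were 1.73 ± 0.37 in KO chimeras and -6.94 ± 0.66 in controls (SD, n = 8 each).

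H60b, a second ligand of the family, was measurable in all 16 mice, so its difference is not a bound. It ran from 0.08 to 1.17 with a median of 0.57 in KO chimeras, against -4.02 to -3.06 with a median of -3.47 in controls. The lowest KO chimera lay 3.15 above the highest control. H60b was 16.6-fold higher in KO chimeras, a log2 difference of 4.05 ± 0.17 (SE, n = 8 per group), which ranked 23 among 23037 genes ordered by signed difference. Increases of 4 or more on this scale were seen in 25 genes, 0.109% of those tested.

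The H60 differences were also read by slide and day. The slides numbered 6, with KO chimeras and controls together on 5 of them, and each of 2 scan days took 4 mice per group. With controls at the lowest measurable signal, H60a was higher by at least 6.37 on day 1 and 6.74 on day 2, by at least 5.91 within every such slide, and by at least 6.47 with any 1 mouse left out. H60b differed by 4.16 on day 1 and 3.94 on day 2, and by 3.42 to 4.64 within the slides. Within the KO chimeras, H60a and H60b had a Pearson r of 0.70 (exact two-sided permutation p = 0.0539, n = 8, adjusted p = 0.227 over 15 relations) and a Spearman rho of 0.52 (exact permutation p = 0.197, adjusted p = 0.405). Without the 2 mice farthest from the median of H60a, r was 0.46. H60a was lower on brighter KO chimera arrays, a relation that did not pass after adjustment (r = -0.85, exact permutation p = 0.00997, n = 8, adjusted p = 0.12 over 12 relations). Its rho was -0.83 (exact permutation p = 0.0154, adjusted p = 0.0923), and r was -0.70 without the 2 farthest mice. With brightness as a covariate the difference was 3.97 for H60b and about 8.43 for H60a, whose fitted size depends on control spots at background. With normexp background correction and quantile normalization they were 2.45 for H60b and 4.29 for H60a.

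**Figure D1:**
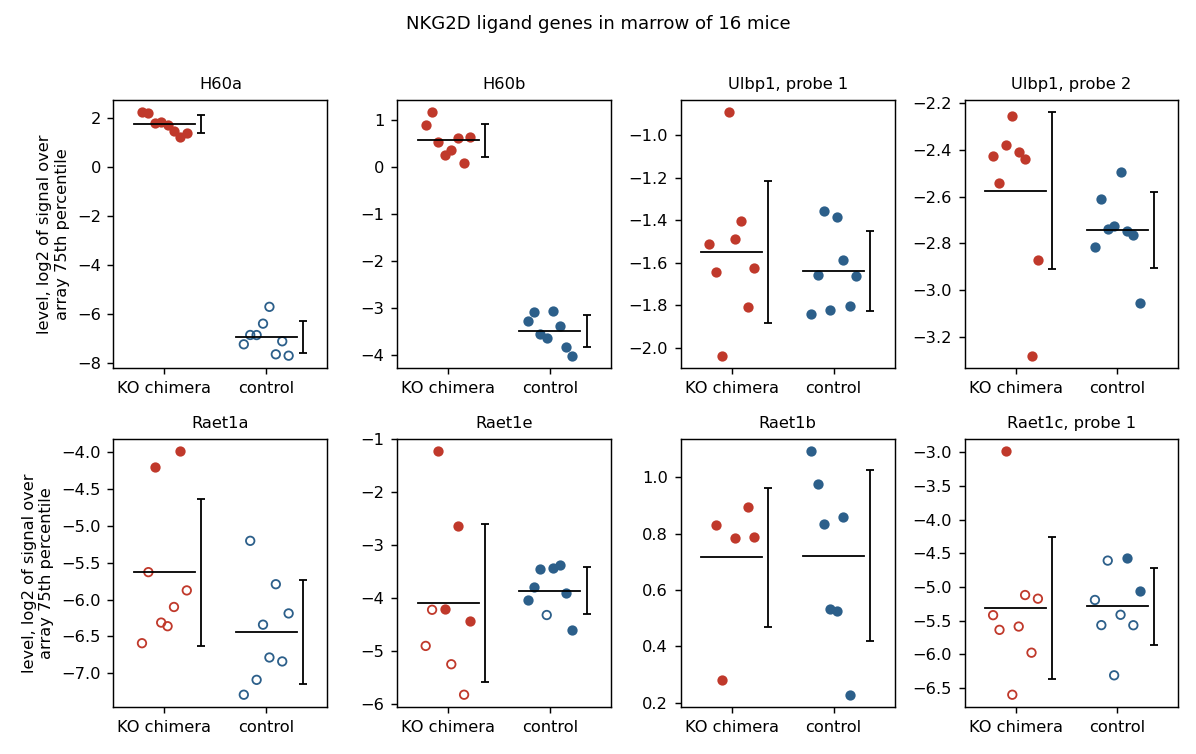
Levels of NKG2D ligand genes by mouse, as log2 of signal over the array's 75th percentile, with a separate axis for each probe; filled points are well above background on their array, open points are not, lines are means and bars 1 SD over the mice of a group. H60a and H60b do not overlap between KO chimeras and controls, both Ulbp1 probes and Raet1b do, and 1 KO chimera stands high on Raet1e (-1.22) and Raet1c (-2.98).

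Ulbp1, which encodes the ligand MULT-1, was above background in every mouse on both of its probes. On the first it ran from -2.04 to -0.89 with a median of -1.57 in KO chimeras, against -1.84 to -1.36 with a median of -1.66 in controls. On the second it ran from -3.28 to -2.26 with a median of -2.43 in KO chimeras, against -3.06 to -2.49 with a median of -2.74 in controls. The groups overlapped on both, with differences of 0.09 ± 0.14 and 0.17 ± 0.14, each smaller than the spread among KO chimeras (SD 0.33 and 0.34).

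The RAE-1 probes did not show the separation between groups seen for H60a and H60b. The Raet1a probe, which may also read Raet1c, was above background in 2 KO chimeras, mouse 3 at -4.20 and mouse 7 at -3.98. It was above background in 0 of 8 controls. Over all mice it read -6.59 at the lowest, -5.99 at the median and -3.98 at the highest in KO chimeras, and -7.29, -6.56 and -5.20 in controls. As 6 of the 8 KO chimeras and all controls were at background, no fold is given. Raet1e was above background in 4 KO chimeras and 7 controls. It read -4.91, -4.23, -1.22, -4.21, -5.26, -2.64, -5.83 and -4.45 in KO chimeras 1 to 8, and -4.61 at the lowest, -3.85 at the median and -3.38 at the highest in controls. KO chimeras lay both above and below the whole control range: mice 3 and 6 above it, and mice 1, 5 and 7, which were at background, below it. Its SD was 1.49 among KO chimeras and 0.45 among controls, and the difference of means was -0.22 ± 0.51, or -0.63 without KO chimera 3. It was 0.71 on scan day 1 and -1.16 on scan day 2, so the mean difference of Raet1e has no settled direction.

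The other ligand genes of the array, which are no members, were read for comparison. Raet1b, a further RAE-1 isoform, was bright in both groups, from 0.28 to 0.89 with a median of 0.79 in 5 KO chimeras, against 0.23 to 1.09 with a median of 0.84 in 7 controls, the spots of the remaining mice being outliers in the scanner software. It differed by -0.01 ± 0.16 (limma adjusted p = 0.987, Benjamini-Hochberg over all genes), and its probe also lists a Raet1e transcript. The 2 Raet1c probes were above background in 1 KO chimera each, mouse 3 at -2.98 and -3.34, and in 2 and 0 controls. H60c, the third H60 gene, was above background in 3 KO chimeras and 5 controls and ran from -5.59 to -3.82 in KO chimeras, against -5.05 to -3.86 in controls. Of the H60 family, H60a and H60b but not H60c thus separated the groups. KO chimera 3 was the highest of its group on the Raet1e probe and on both Raet1c probes. Raet1c probe 2 also lists a Raet1e transcript and the Raet1e probe a Raet1c transcript, so these probes may read the same RNA.

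Klrk1, the gene for NKG2D itself, was low in marrow and lower still in KO chimeras. It was well above background on 2 KO chimera arrays and on all 8 control arrays. The KO chimeras read -6.49, -5.55, -5.10, -3.82, -5.64, -6.15, -4.53 and -4.42 for mice 1 to 8, and controls read -4.27 at the lowest, -3.39 at the median and -3.01 at the highest. The groups overlapped through KO chimera 4, whose -3.82 was above the -4.27 of control 3; the other KO chimeras lay below every control. The difference was -1.70 ± 0.33 (SE, n = 8 per group), -1.55 on scan day 1, -1.84 on scan day 2 and -2.49 to -1.04 within the slides. Its size is approximate, as most KO chimera spots were not above background, and with normexp and quantile normalization the difference was -0.35. In whole marrow, fewer cells that express a gene and less RNA per cell cannot be told apart.

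**Figure D2:**
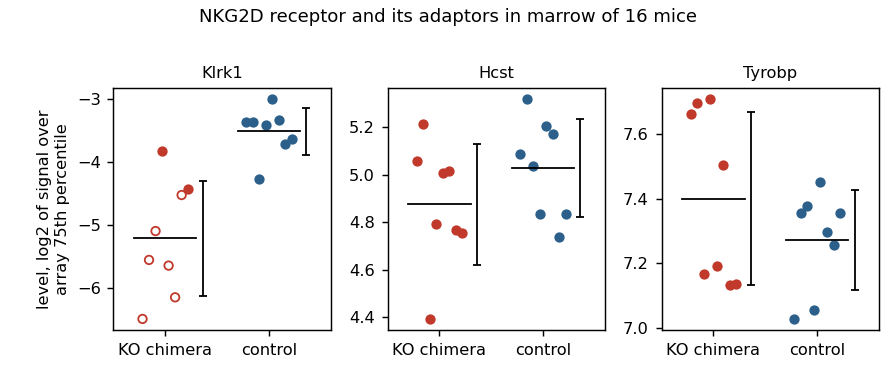
Levels of the receptor gene Klrk1 and the adaptor genes Hcst and Tyrobp by mouse, as log2 of signal over the array's 75th percentile, with a separate axis for each probe; filled points are well above background, open points are not, lines are means and bars 1 SD. KO chimeras lie lower than controls for Klrk1 (means -5.21 and -3.52), and the groups overlap for Hcst and Tyrobp.

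The adaptors that carry the NKG2D signal were above background in every mouse and differed by less than the spread between mice. Hcst (DAP10), which binds phosphatidylinositol 3-kinase and Grb2, ran from 4.39 to 5.21 with a median of 4.90 in KO chimeras, against 4.74 to 5.32 with a median of 5.06 in controls. The difference was -0.15 ± 0.12, and -0.08 without KO chimera 3, its lowest mouse. Tyrobp (DAP12), an adaptor with a tyrosine-based activation motif that myeloid cells also use, ran from 7.13 to 7.71 with a median of 7.35 in KO chimeras, against 7.03 to 7.45 with a median of 7.33 in controls. The difference was 0.13 ± 0.12, and the groups overlapped for both genes. KO chimeras 1, 2, 4 and 6 read 7.66, 7.70, 7.71 and 7.50 for Tyrobp, above every control, while KO chimeras 3, 5, 7 and 8 read 7.17, 7.19, 7.13 and 7.14, with no mouse of that group in between. The 75th percentile of their arrays was 232, 127, 193 and 407 in the higher mice and 195, 427, 545 and 468 in the lower ones. With brightness as a covariate the Tyrobp difference was 0.06. KO chimeras 2, 3, 4 and 6 were scanned on day 1, and KO chimeras 1, 5, 7 and 8 on day 2. The Tyrobp difference was 0.23 on scan day 1 and 0.02 on scan day 2.

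Of the 7 member genes tested, 2 were called higher and 1 lower in the fit over all genes (adjusted p under 0.05), against a background of 22.3% of all genes called, 10.2% higher and 12.1% lower. Of 8 kept member probes, 2 had no overlap between groups, both higher in KO chimeras, while 6.34% of all kept probes did not overlap, 3.06% with KO chimeras higher and 3.28% with KO chimeras lower. As the members were chosen on this contrast, nothing is read from either count. The median difference of all genes was -0.02.

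The genes that act downstream of NKG2D were read next to the members. Of 17 measured signalling genes 0 were higher and 3 lower, with a median difference of -0.03. As 22.3% of all genes were called, nothing is read from the count. It also depends on the probe, as a test per probe gave 5 calls in this list. Further kept probes gave 1.00 and 0.44 for Pik3cd (0.07 in the count) and 0.52 and -0.19 for Plcg1 (-0.23 in the count). Those of Vav1, Syk and Grb2 gave 0.26, 0.14 and 0.07, and that of Lcp2 gave -0.61 (0.20 in the count). Zap70, a kinase that binds phosphorylated activation motifs in T and NK cells, ran from -0.10 to 0.38 with a median of 0.23 in KO chimeras, against 0.86 to 1.30 with a median of 0.98 in controls. It fell by 0.86 ± 0.10 (limma adjusted p = 6.43e-06) with no overlap between groups, and its other probe gave -0.95. Pik3cb, a catalytic subunit of phosphatidylinositol 3-kinase, fell by 0.33 ± 0.11 (adjusted p = 0.0381). Syk, the related kinase that also serves DAP12, had a difference of -0.11 and the exchange factor gene Vav1 one of -0.02, and neither passed.

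Receptors that share DAP12 with NKG2D were also read. Of 10 measured, 1 was higher, 1 lower and 8 did not pass, with a median of -0.20. This lies near the 22.3% of all genes called, so nothing is read from the count. Trem1, which amplifies inflammatory responses of neutrophils and monocytes, ran from 4.63 to 5.59 in KO chimeras (mean 5.07 ± 0.39), against 3.62 to 4.50 in controls (mean 4.14 ± 0.30, SD, n = 8 each), and rose by 0.93 ± 0.17 (adjusted p = 5.66e-04). Klra8, the NK receptor Ly49H that recognises a cytomegalovirus protein, ran from -2.46 to -0.82 with a median of -1.66 in KO chimeras, against -0.84 to 0.23 with a median of -0.43 in controls. It fell by 1.17 ± 0.24 (adjusted p = 0.00172), and another probe gave -1.48. For Trem1 the groups did not overlap, and for Klra8 the highest KO chimera just exceeded the lowest control.

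On the probes counted, NK cell markers were more often lower than higher, as Klrk1 was, but most did not pass. Of 18 measured, 1 was higher, 6 were lower and 11 did not pass, with a median of -0.09, beside 10.2% higher and 12.1% lower over all genes. Further kept probes gave -2.47 for Klrb1c (-0.04 in the count), -0.42 for Eomes, -0.63 for Il2rb, 0.04 for Nkg7 and 0.14 for Klrc1. The mean level of the list ran from -0.58 to 0.09 in KO chimeras, against -0.21 to 0.12 in controls, and 16 of the 18 were above background on all 16 arrays. Ncr1, which encodes the NK receptor NKp46, rose by 1.00 ± 0.18 (adjusted p = 7.14e-04), with a range of -2.51 to -1.17 and a median of -1.84 in KO chimeras, against -3.48 to -2.30 and a median of -2.79 in controls. Klre1, an NK lectin receptor, fell by 0.78 ± 0.16 (adjusted p = 0.0019) and Tbx21, the transcription factor T-bet, by 0.50 ± 0.11 (adjusted p = 0.00235). The granule genes Prf1 (-0.14) and Nkg7 (-0.07) did not pass. Within controls, Klrk1 had an r of 0.70 with Ncr1 (exact permutation p = 0.0607, n = 8, adjusted p = 0.227), -0.14 with Klrd1 and 0.18 with Cd8a. The rho with Ncr1 was 0.55 (exact permutation p = 0.171, adjusted p = 0.405). Without the 2 mice farthest from the median of Klrk1, r was 0.38 with Ncr1, -0.31 with Klrd1 and 0.83 with Cd8a, so the values for Ncr1 and Cd8a rest on those mice. How far the share of NK cells bears on the Klrk1 difference was not tested.

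T cells, some of which also carry NKG2D, had lower values for more markers than higher ones. Of 14 measured, 3 were higher, 8 lower and 3 did not pass, with a median of -0.44, beside 10.2% higher and 12.1% lower over all genes. The mean level over 12 of the markers ran from -1.05 to -0.29 in KO chimeras, against -0.66 to -0.08 in controls. With slide as a block 7 of the markers were called in all, against 11 here. Cd8a, a chain of the CD8 co-receptor, fell by 1.42 ± 0.19 (adjusted p = 3.21e-05), with -0.44 on its other probe, and Thy1 fell by 1.20 ± 0.16 (adjusted p = 2.86e-05). Cd3d, which encodes the CD3 delta chain, went the other way, with 3.70 to 4.41 in KO chimeras and 1.51 to 2.12 in controls, and rose by 2.18 ± 0.11 (adjusted p = 4.9e-10).

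Myeloid cells are a further source of Tyrobp in marrow, and their markers went both ways. Of 16 measured, 3 were higher, 2 lower and 11 did not pass, with a median of 0.09, beside 22.3% of all genes called. Mean levels were 5.33 to 5.90 in KO chimeras and 5.24 to 5.61 in controls. The count depends on the probe. Further kept probes gave 0.85 and 0.27 for Csf1r, 0.33 for Cd68, 0.34 and 0.26 for Itgam (-0.31 in the count), 1.08 for Mpo and 0.47 for Camp. A test per probe gave 8 calls in this list, against 5 here. Cd14, the lipopolysaccharide co-receptor, rose by 2.26 ± 0.13 (adjusted p = 2.1e-09), Spi1, the transcription factor PU.1, rose by 0.96 ± 0.15 (adjusted p = 1.31e-04) and Ly86 fell by 0.51 ± 0.12 (adjusted p = 0.00618). Of 12 marrow B and erythroid markers 1 was higher and 0 were lower, with mean levels of 3.26 to 4.21 in KO chimeras and 3.17 to 4.25 in controls; Vpreb1, part of the surrogate light chain of early B cells, rose by 1.36 ± 0.37 (adjusted p = 0.0131). Within controls, Tyrobp followed Fcer1g, another adaptor with an activation motif, by rank (rho = 0.95, exact permutation p = 0.00114, n = 8, adjusted p = 0.0171 over 15 relations). By Pearson r the same relation was 0.81 (exact permutation p = 0.0205, adjusted p = 0.227), and 0.77 without the 2 farthest mice. In KO chimeras the rank relation of Tyrobp to Fcer1g did not pass (rho = 0.31, exact permutation p = 0.462, n = 8, adjusted p = 0.671). Their Tyrobp levels lay in 2 clusters, and no r is given for them. Each scan day held 4 mice of a group, too few for values within a day.

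**Figure D3:**
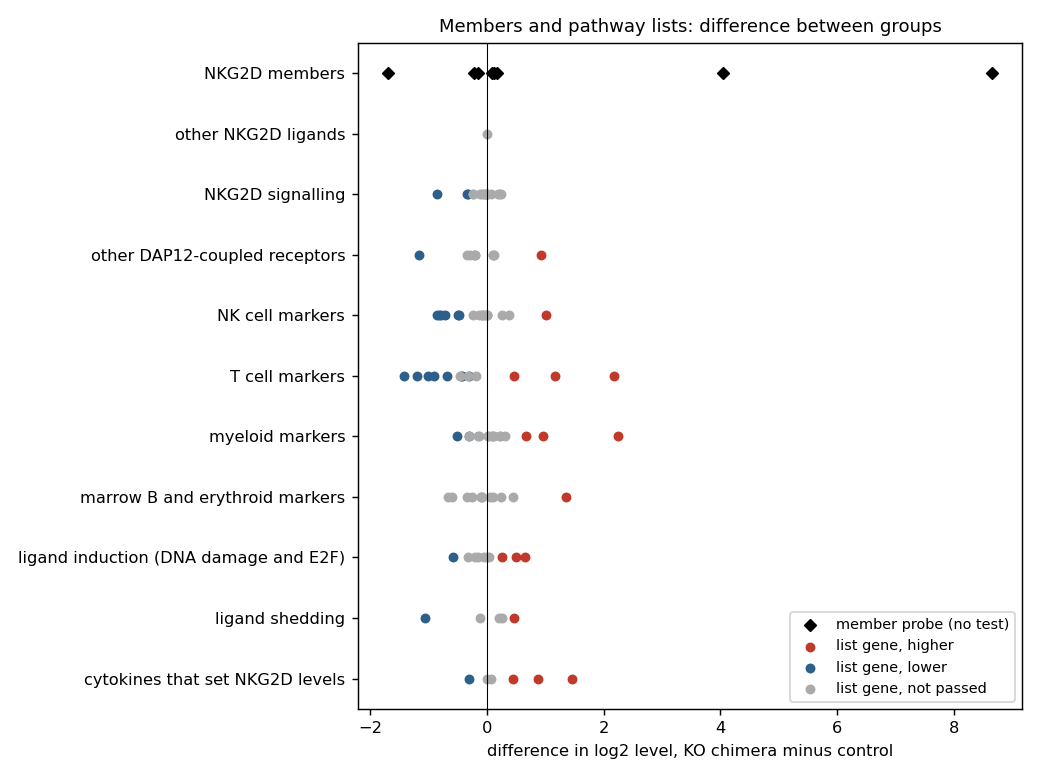
Difference in log2 level, KO chimera minus control, for each kept member probe (diamonds, not tested) and each measured gene of the related lists (red higher, blue lower, grey not passed in the limma fit at adjusted p under 0.05). H60a (8.66, its size approximate as all controls were at background) and H60b (4.05) lie to the right of all list genes, and Klrk1 (-1.70) to the left of them.

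Genes linked to the induction of NKG2D ligands were called in both directions. Of 10 genes of the DNA damage response and the E2F factors, 3 were higher, 1 lower and 6 did not pass, with a median of -0.02. In the same fit 10.2% of all genes were higher and 12.1% lower. Mdm2 and Cdkn1a, both targets of p53, rose by 0.49 ± 0.09 and 0.64 ± 0.12 (adjusted p = 0.00101 and 0.00102), with 1.39 on the other Cdkn1a probe. Trp53, the p53 gene, fell by 0.58 ± 0.15 (adjusted p = 0.00805). The kinase genes Atm (-0.04) and Atr (-0.21), which relay DNA damage to the ligands, did not pass.

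Of 5 genes linked to the release of ligands from the cell surface, 1 was higher, 1 lower and 3 did not pass. For this list and the next, the background was 10.2% of all genes higher and 12.1% lower. The sheddase gene Adam17 rose by 0.46 ± 0.11 (adjusted p = 0.00491) and the membrane protease gene Mmp14 fell by 1.06 ± 0.25 (adjusted p = 0.00468). Of 6 measured genes for cytokines and receptors that set NKG2D levels, 3 were higher, 1 lower and 2 did not pass, with a median of 0.26. Il18, a cytokine that activates NK cells, ran from -0.55 to 0.60 with a median of 0.09 in KO chimeras, against -1.75 to -0.84 with a median of -1.42 in controls, and rose by 1.46 ± 0.17 (adjusted p = 7.1e-06). Il12a, a subunit of interleukin 12, rose by 0.88 ± 0.19 (adjusted p = 0.00304). Il15ra, which presents interleukin 15 to NK cells, rose by 0.45 ± 0.10 (adjusted p = 0.0028), but its other probe gave -0.02. Il15 itself (0.07) and Tgfb1 (0.00), which lowers NKG2D, did not pass.

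The genes beside the ligands on chromosome 10 did not share the size of the H60b difference. Of 15 tested genes with a probe within 1 Mb of a chromosome 10 member, 2 were higher, 1 lower and 12 did not pass, with a median of -0.10. Over all genes 10.2% were higher and 12.1% lower, the share to set beside the counts of each locus here. Sgk1, a serum-induced kinase 184 kb from the Raet1e probe, rose by 0.84 ± 0.14 (adjusted p = 3.13e-04) with no overlap between groups, E030030I06Rik rose by 0.43 ± 0.13 (adjusted p = 0.0265) and Eya4 fell by 0.79 ± 0.20 (adjusted p = 0.00921). Around Klrk1 on chromosome 6, 46 genes were tested, of which 3 were higher (6.52%), 16 lower (34.8%) and 27 did not pass. Among them 21 carry a Klr name, lectin-like receptors of NK cells, and 10 of these were lower and 0 higher; some Klr genes are near-identical copies, and their probes may not separate them. Klrd1, at 13.3 kb the nearest of them to Klrk1 that was called, fell by 0.48 ± 0.16 (adjusted p = 0.0385), and Klrc1, at 54.4 kb, by 0.85 ± 0.21 (adjusted p = 0.00808), although its other probe gave 0.14. The smallest p values there were those of Clec1b, a lectin of platelets and megakaryocytes, which fell by 2.87 ± 0.22 (adjusted p = 5.6e-08), and of Clec9a, a dendritic cell lectin, which fell by 1.56 ± 0.15 (adjusted p = 1.17e-06). Beside Hcst and Tyrobp, 80 genes were tested, with 10 higher, 13 lower and a median of -0.06, and the smallest p was that of Gm6579 (0.49 ± 0.07, adjusted p = 3.57e-05).

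**Figure D4:**
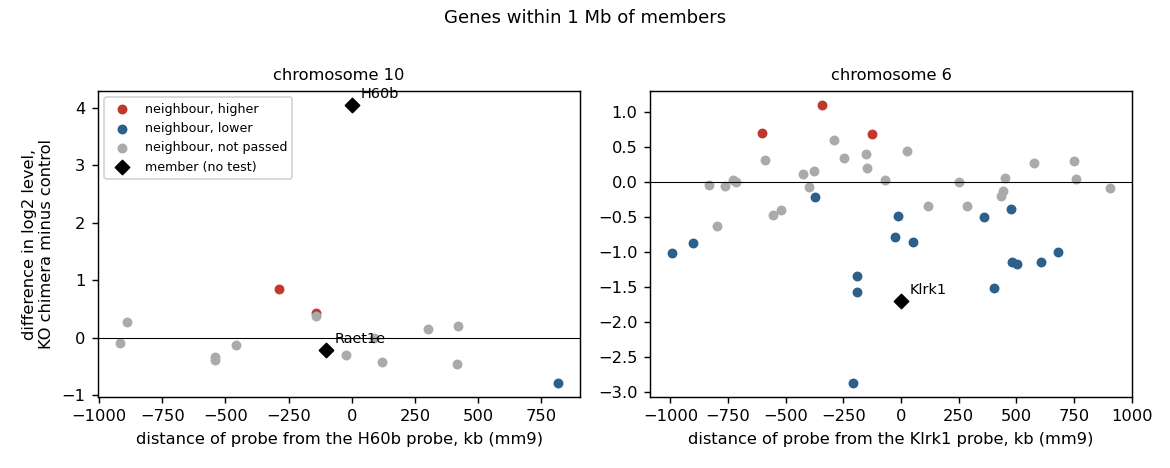
Difference in log2 level, KO chimera minus control, against the distance in kb (mm9) of each tested gene's probe from the H60b probe on chromosome 10 and from the Klrk1 probe on chromosome 6; black diamonds are members, red and blue points passed the limma test. H60b (4.05) stands far above its neighbours, while Klrk1 (-1.70) lies among several other lower genes, of which Clec1b (-2.87) is below it.

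Likeness to other genes was read from Pearson r over the 16 mice and 22287 genes, as a description in which the 2 groups and the arrays are shared. H60a was most like an unnamed probe (r = 0.994), 4931429I11Rik (0.993) and the lectin gene Itln1 (0.993), which on the probes compared were above background in 8 KO chimeras and 0 controls each. Klrk1 was most like the Ly49 genes Klra23 (0.936) and Klra7 (0.932), followed by Kbtbd2 (0.916). Tyrobp was most like the galectin gene Lgals3 (0.941) and Hcst most like Nkx1-1 (0.890), which was above background in 3 KO chimeras and 7 controls. After each group's mean was subtracted, Tyrobp was still closest to Lgals3 (0.938). On that scale H60b was closest to Gm14486 (0.964) and Ikzf1 (0.916), Ulbp1 to the myeloid progenitor gene Ms4a3 (0.942) and Hcst to Pi16 (0.897).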

How the data were processed

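Images were read with Agilent Feature Extraction, version 10.1.1.1 per the file headers and 10.7 per the submitters' processing notes. In the deposited files each spot has an intensity, linear and background-subtracted by that software, per the file headers. The authors also deposited a table of log2 values, whose columns correlated with the scanner signal at 0.991 or higher. No value in it is below 2.3. Column medians were 4.99, 4.98, 5.00, 5.00, 5.00, 4.99, 4.99 and 5.00 for KO chimeras 1 to 8, and 5.00 for every control. Its normalization is abbreviated in the labels, and how it was centred was not stated in any source at hand.

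Here each spot's processed signal was taken relative to the 75th percentile of the array's non-control spots, on the log2 scale. Spots marked as outliers were dropped and repeat spots averaged; saturation did not occur. Filtering kept 32657 of 55681 probes, and 23037 gene names were tested, each on the brightest of its kept probes, using limma 3.58.1 (R 4.3.3) with two-sided moderated tests adjusted over all genes by Benjamini-Hochberg. Members, lists and tests were chosen with earlier results of these data known. All member probes are reported, with up to 3 called genes per list and locus by smallest p and the 3 most alike genes; other genes were named after their values were seen. Some genes that this rule selects are not reported here. Names are those of the array design. In simulated data over 22287 genes, 45 of 50 genes changed by 1 (log2) and 22 of 50 changed by 0.5 were recovered, with 7 false calls. Labels describe separate mice. Alternatives were other normalizations, the authors' values, filters, slide, scan day and replicate blocks, single scan days, a test per probe and leaving out each mouse; brightness as a covariate and neighbour counts were added after seeing the data.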

Additional observations from a re-analysis of the deposited data

Results flagged for a closer look

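Of 26 groups of 4 or more values checked for a mouse far from the rest of its group, 3 stood out by Dixon's ratio (the gap to the nearest mouse over the whole range), where chance gives about 1 in 20. All 3 are KO chimera 3 on probes of RAE-1 genes. It was the lowest of 5 KO chimeras on Raet1b, at 0.28 with the next mouse at 0.78 (ratio 0.822). It was the highest of 8 on Raet1c probe 1, at -2.98 with the next at -5.12 (ratio 0.591), and on Raet1c probe 2, at -3.34 with the next at -5.64 (ratio 0.684), and it was the mouse above background on both in its group. The 2 Raet1c probes overlap by 33 bases and so are not independent readings. Why this mouse stands apart was not tested.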

How the results depend on the processing

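With 8 mice per group, small differences such as those of Ulbp1, Hcst and Tyrobp are smaller than the spread between mice, and spots at background limit the sizes given for H60a, Klrk1 and Raet1e. Over all settings tried, H60a, H60b and Klrk1 kept their direction. H60a differed by 4.29 with normexp and quantile normalization and by 7.78 in the authors' values, against 8.66 with the processed signals, all approximate as controls were at background; H60b by 2.45 and Klrk1 by -0.35 with normexp. Raet1e ranged from -1.16 to 0.71. Genes changed numbered 5139, with 1609 on scan day 1 alone and 2312 on scan day 2 alone, each with 4 mice per group and at most 6223 (array weights) in other tests per gene; a test per probe called 7692 probes. List genes called numbered 39, with 13 and 19 on the single days. Neighbours called on chromosomes 10, 6 and 7 numbered 3, 19 and 23. They were 1, 5 and 1 on day 1 alone, and 1 on chromosome 10 and 9 on chromosome 7 on day 2 alone. The relation of Klrk1 to Cd8a in controls was 0.18 as reported, -0.045 with quantile normalization and -0.0533 in the authors' values; it passed in none of these, and the cause was not tested.

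Leaving out 1 mouse at a time gave 4393 to 5321 genes and 34 to 41 list genes. H60a differed by 8.55 to 8.84, H60b by 3.96 to 4.12, Raet1e by -0.63 to 0.02, Ulbp1 by -0.0057 to 0.16 and 0.12 to 0.27, Klrk1 by -1.89 to -1.51, Hcst by -0.20 to -0.08 and Tyrobp by 0.08 to 0.17. Replicate numbers did not pair the mice, since correlations of same-numbered mice ran from -0.195 to 0.198 and 1 of 8 matched its own number best. With replicate number as a block, 4727 genes and 35 list genes were called, and H60a, H60b and Klrk1 differed by 8.66, 4.05 and -1.70.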
